A study of Mus musculus with 16 samples.

Results

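The 40 genes described here encode parts of the mitotic spindle, the kinetochore and the centromere, together with the kinases, cyclins and chromosome proteins that act with them in mitosis. They were taken by gene symbol from a list that was chosen with earlier results of these data known. The shares of all genes given beside their counts are therefore descriptions. All 40 were found among the 55536 gene identifiers of the count table. By role they fall into 9 groups: the chromosomal passenger complex, centromere chromatin and the inner kinetochore, the outer kinetochore, the spindle checkpoint with cohesion protection, mitotic kinases, cyclins with Cdc20, kinesins, spindle assembly and midzone proteins, and mitotic chromosome proteins.

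In a dividing cell the kinetochore is built on centromeric nucleosomes that carry the histone variant CENP-A, and its outer layer captures spindle microtubules. The spindle checkpoint holds back the anaphase-promoting complex until every chromosome is attached, after which cyclin B is destroyed and sister chromatids part. Most of these genes are transcribed in G2 and mitosis and are low in resting cells, so their transcripts are widely used to follow how many cells in a tissue are dividing.

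RNA-seq was done on 16 mouse samples from 2 genotypes, called KLF K74R (KO in the sample titles) and KLF WT in the labels, in 3 tissues. K74R denotes a lysine-to-arginine change, and which KLF gene carries it is not said in the labels. Bone marrow was sampled in 3 K74R and 3 WT libraries, cells or tissue labelled MSC in 2 K74R and 2 WT libraries, and tumors in 3 K74R and 3 WT libraries. The tumors are of MC38, a mouse colon adenocarcinoma line, and were at most 1000 mm3 in volume. The series sets K74R mice against WT mice for expression differences in these tissues. The genotype of a tumor sample is that of the mouse, while MC38 cells come from a line, so the 2 sources of RNA are mixed. The labels do not expand MSC, give no age, and do not say whether replicates came from separate mice or cultures, so a p-value here reflects the spread of these samples alone, part or all of which may be technical. The column names of the WT tumors hold an R that those of the K74R tumors lack, and the WT MSC columns are named KCF where the K74R MSC columns are named KLF. The sources used here do not say what these letters mean.

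Libraries held between 14067259 and 18923751 counts. Levels are CPM, the counts of a gene relative to the TMM-scaled total of its library, and 3 counts correspond to between 0.148 and 0.230 CPM in a single library, counting error alone. Each of 8 lists of 10 cell type markers was summed per library to check the tissue labels. Bone marrow was rich in erythroblast markers (34143 to 42483 CPM in K74R, 34661 to 44749 CPM in WT). The MSC libraries held stromal markers at 12397 to 17061 CPM in K74R and at 12789 to 14031 CPM in WT, but also macrophage markers at 2526 to 4757 CPM in K74R and at 7364 to 9525 CPM in WT, among them the leukocyte gene Ptprc. The 10 epithelial markers summed to only 6.48 to 7.28 CPM in K74R tumors and to 5.85 to 10.1 CPM in WT tumors, so the epithelial label of the MC38 cells is not seen in these genes.

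The promoters of the genes were examined first, since genes of this class often share a pair of short elements. TTTGAA is the core of the CHR element, at which the MuvB core of the DREAM complex binds, and CCAAT is the site of NF-Y. RefSeq windows on GRCm38.p6, from 250 bases before to 50 bases after the gene start, were found for 32 of the 40 genes. Aurkb, Ccna2, Cdca2, Ercc6l, Incenp, Kif20a, Spc24 and Tpx2 had none in the table. Counting either strand, 21 of the 32 genes (65.6%) held TTTGAA, against 20.2% of the 27025 genes in the table. CCAAT was present for 26 (81.2%), against 41.1% of all genes. Both stood in the same window for 19 (59.4%), against 7.97% of all genes, and 18 (56.2%) held at least 2 CCAAT, against 13.3%. The E2F elements were rare, with TTTCCCGC in 1 of the 32 (3.12%, against 1.24% of all genes) and TTTGGCGC in 0 (against 0.585%). A match is a description of the letters and not a binding site, and the windows of genes that share an element were not compared for the strength of their response.

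The 160 bases before the RefSeq start of 6 genes follow, each read 5′ to 3′ on the gene's own strand, with TTTGAA and CCAAT, or their reverse complements TTCAAA and ATTGG, in capitals. Cdk1, Cdc20 and Prc1 are shown because both elements lie close to the start, Ccnf because it holds 2 of each, Top2a because the TTTGAA nearest its start lies on the opposite strand, with 4 CCAAT in the stretch, and Ccnb1 because it holds 2 CCAAT and no TTTGAA. They were chosen after the matches were seen. Where a gene had several windows, the window with the most TTTGAA wholly before its start was printed. The Cdk1 stretch is chr10:69352913-69353072 on the minus strand, Cdc20 chr4:118437344-118437503 on the minus strand, Ccnf chr17:24251410-24251569 on the minus strand, Prc1 chr7:80294316-80294475 on the plus strand, Top2a chr11:99024190-99024349 on the minus strand and Ccnb1 chr13:100786487-100786646 on the minus strand.
Cdk1: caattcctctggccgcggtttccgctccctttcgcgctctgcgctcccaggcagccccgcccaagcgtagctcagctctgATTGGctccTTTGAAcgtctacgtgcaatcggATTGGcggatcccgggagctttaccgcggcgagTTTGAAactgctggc
Cdc20: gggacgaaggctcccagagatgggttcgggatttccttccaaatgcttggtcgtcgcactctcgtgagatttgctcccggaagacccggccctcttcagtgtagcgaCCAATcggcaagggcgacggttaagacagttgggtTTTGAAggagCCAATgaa
Ccnf: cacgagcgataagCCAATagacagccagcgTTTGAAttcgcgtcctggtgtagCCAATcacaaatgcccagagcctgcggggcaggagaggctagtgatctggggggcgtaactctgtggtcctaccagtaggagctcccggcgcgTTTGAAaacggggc
Prc1: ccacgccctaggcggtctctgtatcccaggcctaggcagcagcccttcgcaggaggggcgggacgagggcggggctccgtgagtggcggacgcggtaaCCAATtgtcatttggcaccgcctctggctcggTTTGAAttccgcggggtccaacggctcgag
Top2a: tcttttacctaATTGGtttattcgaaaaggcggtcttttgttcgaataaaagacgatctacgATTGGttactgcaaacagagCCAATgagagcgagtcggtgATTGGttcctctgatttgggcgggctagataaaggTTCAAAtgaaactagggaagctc
Ccnb1: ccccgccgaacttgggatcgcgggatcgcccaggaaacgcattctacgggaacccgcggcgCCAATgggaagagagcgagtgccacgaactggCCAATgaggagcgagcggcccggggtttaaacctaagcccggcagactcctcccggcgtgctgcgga
The TTTGAA nearest the start lies 15 bases before it in Cdk1, 18 in Cdc20, 14 in Ccnf, 30 in Prc1 and 23 in Top2a, counted to the first base of the match as printed. Prc1 has another window with a different start, from which TTTGAA lies 5 bases before and CCAAT 37.

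In MSC the mitotic genes stood higher in K74R without exception. All 40 were higher in both K74R libraries than in both WT libraries, where 30.4% of the 14475 genes tested were so ordered. With edgeR (quasi-likelihood, Benjamini-Hochberg adjusted over all genes tested) 34 rose and 0 fell at an adjusted p under 0.05, against 2.05% of all genes that rose and 1.29% that fell. The log2 fold changes (K74R over WT throughout) ran from 0.89 to 3.17 with a median of 2.47, where the median over all genes tested was 0.00. In linear terms 37 of the genes were at least 4-fold higher, 2 were between 2-fold and 4-fold higher and 1 was under 2-fold higher. The 34 made up 11.4% of the 297 genes that rose in MSC, and 32 of them were among the 194 that rose at least 4-fold. The other 6 (Incenp, Cenpk, Cenpe, Cenpf, Kif11 and Mki67) had adjusted p between 0.0529 and 0.0918. The number of calls depended on the libraries used more than the fold changes did. Without K74R library 1 the log2 fold changes ran from 1.09 to 3.18 with a median of 2.46, yet 0 of the 40 and 0 of the 15191 genes tested passed, with a lowest adjusted p of 0.0933 among the 40 and an unadjusted p under 0.05 for all 40. Without K74R library 2 the count was 25 (median 2.44), without WT library 1 it was 37 (2.74), and without WT library 2 it was 29 (2.16). In each of these fits 1 genotype has a single library, which is assumed to vary like the pair of the other genotype. In bulk RNA, more dividing cells and more of these transcripts per dividing cell cannot be told apart.

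**Figure D1:**
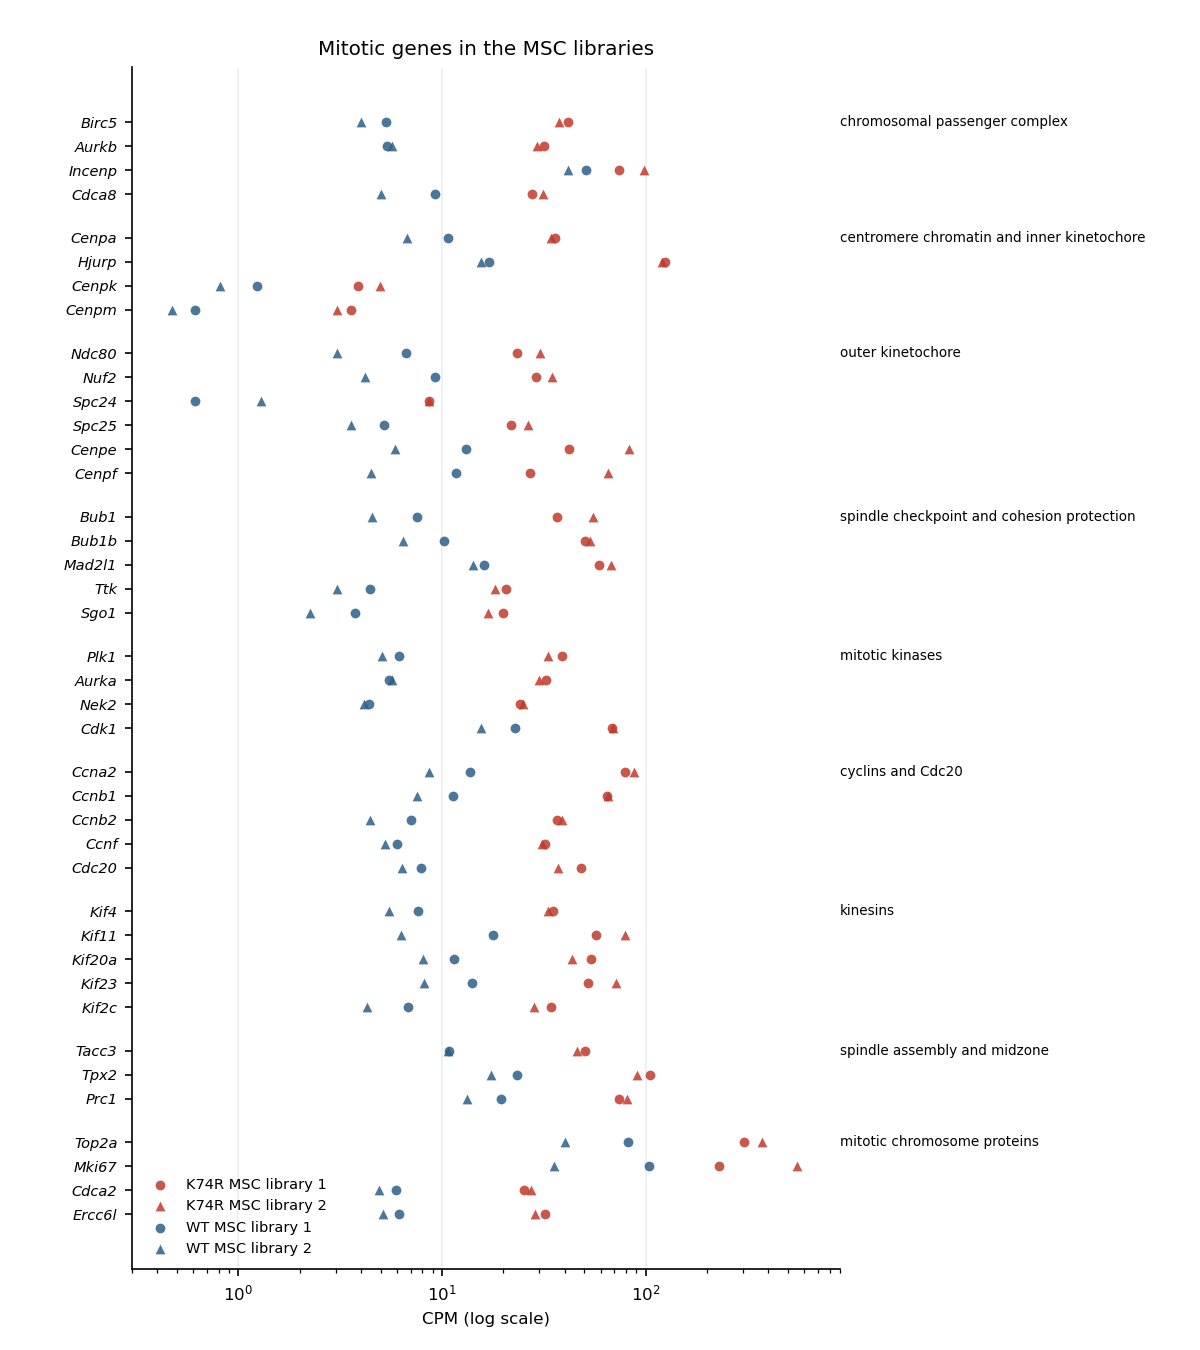
CPM (log scale) of the 40 genes in the 4 MSC libraries, grouped by role, with circles for library 1 and triangles for library 2 of each genotype. Both K74R libraries lie right of both WT libraries for every gene, and the gap is narrowest for Incenp.

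Within the chromosomal passenger complex, which corrects faulty attachments at the centromere and later acts at the midzone, 3 of 4 genes rose. Birc5, which encodes the subunit survivin, had 41.7 and 37.6 CPM in the K74R libraries, against 5.29 and 3.995 CPM in the WT libraries. Its log2 fold change was 3.08 (SE 0.24, adjusted p = 0.0196). Aurkb, the kinase of the complex, had 31.8 and 29.2 CPM in K74R, against 5.35 and 5.69 CPM in WT (log2 fold change 2.46, SE 0.21, adjusted p = 0.0196). Cdca8, which encodes borealin, rose as well (2.04). Incenp, the scaffold that binds the kinase, had 73.96 and 98.6 CPM in K74R, against 51.2 and 41.4 CPM in WT. Its log2 fold change of 0.89 (SE 0.23, adjusted p = 0.0882) was the smallest of the 40. Per kilobase of exon Incenp had 10.7 CPM in WT MSC, the highest of the 40 genes there, where the median gene had 1.44.

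Among the genes of centromere chromatin and the inner kinetochore 3 of 4 rose. Hjurp, the chaperone that loads CENP-A onto centromeres, had 124 and 120.1 CPM in K74R, against 16.9 and 15.5 CPM in WT. The replicates of each genotype lay close together, and Hjurp had the smallest adjusted p of the 40 (log2 fold change 2.91, SE 0.18, adjusted p = 0.0135). Cenpa, which encodes CENP-A itself, had 35.7 and 34.1 CPM in K74R, against 10.7 and 6.70 CPM in WT (1.99, SE 0.28, adjusted p = 0.0334). Cenpm and Cenpk encode subunits of the constitutive centromere network and were counted little in MSC. Cenpm rose (2.58, adjusted p = 0.0443) on 61 and 47 counts in K74R, against 10 and 7 counts in WT. Cenpk had 66 and 76 counts in K74R, against 20 and 12 counts in WT, and was not called (2.09, adjusted p = 0.0577).

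In the outer kinetochore 4 of 6 genes rose, and these 4 are the NDC80 complex, which grips the microtubule. Spc24 had 8.59 and 8.63 CPM in K74R, against 0.615 and 1.29 CPM in WT, from 146 and 133 counts against 10 and 19. Its log2 fold change of 3.17 (SE 0.43, adjusted p = 0.0319) was the largest of the 40, on a WT level of few reads. Ndc80, the subunit with the microtubule-binding head, had 23.3 and 30.1 CPM in K74R, against 6.64 and 3.05 CPM in WT (2.45, SE 0.41, adjusted p = 0.0441). Nuf2 (2.23) and Spc25 (2.44) rose with them. The motor Cenpe and the large coiled-coil protein gene Cenpf had log2 fold changes of 2.70 and 2.49 without a call, with SE of 0.50 and 0.61. Cenpf had 26.9 and 65.6 CPM in the K74R libraries, against 11.7 and 4.47 CPM in the WT libraries, so the replicates of each genotype differed more than 2-fold.

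All 5 genes of the spindle checkpoint and cohesion protection rose. Bub1, a kinase that marks centromeres for shugoshin and recruits checkpoint proteins, had 36.7 and 54.9 CPM in K74R, against 7.50 and 4.54 CPM in WT (log2 fold change 2.91, SE 0.35, adjusted p = 0.0263). Bub1b (2.63) and Mad2l1 (2.06), which encode BubR1 and MAD2 of the mitotic checkpoint complex, rose too. So did the checkpoint kinase gene Ttk (2.37) and Sgo1 (2.60), which encodes shugoshin, the protector of centromeric cohesion.

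The 4 mitotic kinases rose together. Cdk1, the kinase that drives entry into mitosis, had 68.5 and 68.9 CPM in K74R, against 22.8 and 15.5 CPM in WT. Its log2 fold change of 1.83 (SE 0.25, adjusted p = 0.0319) was the smallest among the 34 genes that rose. Plk1, the polo kinase of spindle assembly, had 38.9 and 32.98 CPM in K74R, against 6.15 and 5.08 CPM in WT (2.67, SE 0.23, adjusted p = 0.0196). Aurka (2.48) and Nek2 (2.52), kinases of the centrosome, lay in the same range.

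Cyclins and Cdc20 rose in all 5 cases and had the highest group median, 2.71. Ccna2, the cyclin of S phase and G2, had 79.3 and 87.2 CPM in K74R, against 13.7 and 8.60 CPM in WT (log2 fold change 2.89, SE 0.28, adjusted p = 0.0196). Ccnb1, the partner of CDK1 in mitosis, had 64.2 and 65.2 CPM in K74R, against 11.3 and 7.52 CPM in WT (2.77, SE 0.26, adjusted p = 0.0196). Ccnb2 (2.71), Ccnf (2.47), whose product is a substrate adaptor of a ubiquitin ligase, and the anaphase activator gene Cdc20 (2.57) rose as well.

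Of the 5 kinesins 4 rose, Kif4 (2.37), Kif20a (2.31), Kif23 (2.46) and Kif2c (2.49). Kif4 encodes a chromokinesin, Kif20a and Kif23 encode motors of the midzone and cytokinesis, and Kif2c encodes a microtubule depolymerase of the centromere. Kif11, the motor that pushes the spindle poles apart, had 56.96 and 79.2 CPM in K74R, against 17.8 and 6.30 CPM in WT, and was not called (2.48, SE 0.50, adjusted p = 0.0577). The spindle assembly and midzone genes Tacc3 (2.16), Tpx2 (2.26) and Prc1 (2.24) all rose. TACC3 stabilises kinetochore fibres, TPX2 activates Aurora A on the spindle, and PRC1 bundles the midzone microtubules.

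Among the mitotic chromosome proteins 3 of 4 genes rose. Top2a, the topoisomerase that untangles sister chromatids, had 305 and 372 CPM in K74R, against 81.7 and 40.4 CPM in WT (log2 fold change 2.46, SE 0.38, adjusted p = 0.0370). Mki67, which encodes the proliferation marker Ki-67 of the chromosome surface, had 228 and 554 CPM in K74R, against 104 and 35.6 CPM in WT. The groups did not overlap, yet K74R library 2 stood far above K74R library 1 and WT library 1 far above WT library 2, and Mki67 had the largest SE of the 40 (log2 fold change 2.47, SE 0.64, adjusted p = 0.0918). Cdca2 (2.27), which encodes a targeting subunit of a chromosome phosphatase, and Ercc6l (2.42), which encodes the PICH translocase of ultrafine anaphase bridges, rose.

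The replicates of MSC differed in a way that went with gene length. The geometric mean of the 40 genes was 38.5 and 42.04 CPM in the K74R libraries, against 8.73 and 5.99 CPM in the WT libraries. WT library 2 was the lowest of the 4 for 37 of the genes, while K74R library 2 was the highest for 23 and K74R library 1 for 17. Over the 40 genes the log2 ratio of K74R library 2 to K74R library 1 had a Spearman correlation of 0.57 with summed exon length, and the ratio of WT library 2 to WT library 1 one of -0.45, both given as descriptions across genes that share the same libraries. Over 11744 genes with a mean MSC count of at least 50 the same correlations were 0.20 and -0.09. Cenpf (15.4 kb) and Mki67 (10.1 kb), the longest of the 40, had no call, and neither had Cenpe (8.62 kb), while the long genes Top2a (9.01 kb), Mad2l1 (8.39 kb) and Hjurp (8.33 kb) rose. With offsets for the trend of each library on exon length, 35 of the 40 rose.

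**Figure D2:**
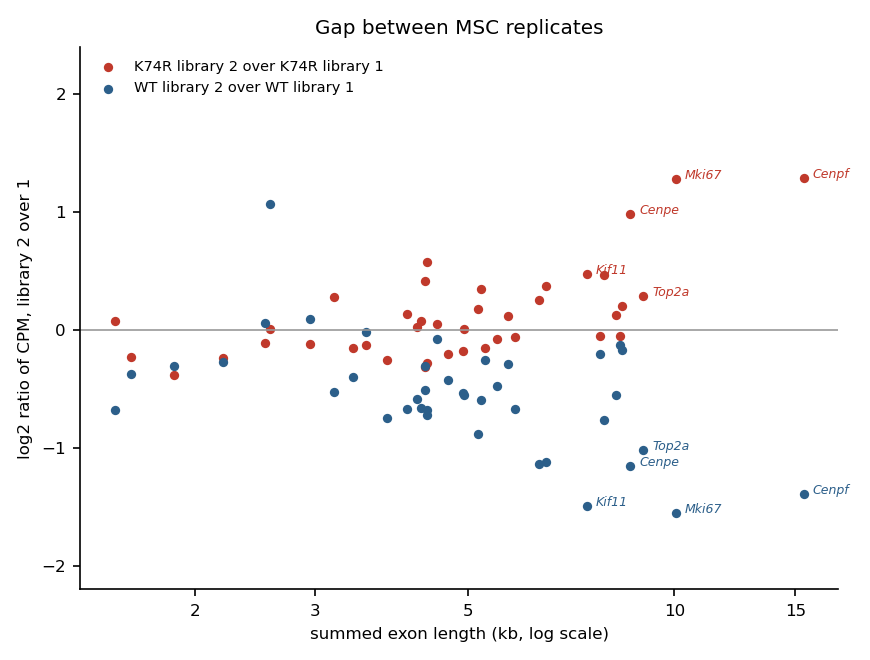
Log2 ratio of CPM in library 2 over library 1 of MSC for each of the 40 genes, in K74R and in WT, against summed exon length (kb, log scale). Long genes such as Mki67 and Cenpf reach 1.28 and 1.29 in K74R and -1.55 and -1.39 in WT. Other long genes such as Hjurp (-0.05 in K74R and -0.12 in WT) lie near 0. The short gene Spc24 reaches 1.07 in WT, on only 19 counts in library 2 and 10 in library 1.

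Lists of related cell cycle genes were examined beside the mitotic set in MSC. Of 36 further spindle and cytokinesis genes 24 rose and 0 fell (median log2 fold change 2.16), among them Anln, the contractile ring scaffold (2.21, adjusted p = 0.0196), and Cdca3 (2.76, adjusted p = 0.0216). Of 45 DNA replication genes 23 rose and 0 fell, with a lower median of 1.37. Mcm6, a subunit of the replicative helicase, had 156 and 159.8 CPM in K74R, against 33.8 and 31.6 CPM in WT, and Uhrf1, which guides maintenance methylation, had 84.2 and 83.2 CPM in K74R, against 16.6 and 13.95 CPM in WT. Their log2 fold changes were 2.26 and 2.45 (adjusted p = 0.0196 for both). The geometric mean of the 40 mitotic genes was divided by that of the replication genes in each library. This ratio was 1.23 and 1.40 in K74R MSC, against 0.704 and 0.561 in WT MSC. In marrow it ran from 1.66 to 1.77 in K74R and from 1.58 to 1.64 in WT, also without overlap. In tumors it ran from 1.27 to 1.35 in K74R and from 1.34 to 1.46 in WT. The ratio restates the fold changes of the 2 lists and was not tested.

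Lists of other mitotic complexes had lower medians. Of 34 further kinetochore and centromere genes 7 rose and 0 fell (median 1.15), led by the checkpoint genes Kntc1 (2.56) and Zwilch (2.24). Of 20 condensin and cohesin genes 4 rose (median 0.43), with the condensin subunit genes Ncapd2 (1.77) and Ncaph (1.82) of smallest p. Of 20 genes of the anaphase-promoting complex and separase 2 rose (median 0.39), the E2 enzyme gene Ube2c (2.47) and the inhibitor gene Fbxo5 (1.86). None of these lists had a member that fell, and against them the median over all genes tested was 0.00.

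Of 19 regulators of cell cycle transcription 4 rose and 0 fell (median 0.37). Foxm1, a forkhead factor of G2 and mitosis genes, had 47.5 and 50.6 CPM in K74R MSC, against 12.1 and 15.5 CPM in WT MSC (log2 fold change 1.82, SE 0.21, adjusted p = 0.0243). Mybl2, which encodes the B-MYB partner of MuvB, had 18.1 and 16.3 CPM in K74R, against 2.15 and 3.86 CPM in WT (2.51, SE 0.35, adjusted p = 0.0319). The repressor genes E2f7 (2.38) and E2f8 (2.48) were the other 2. E2f1, an activator of S phase genes, had 28.7 and 31.1 CPM in K74R, against 27.5 and 21.1 CPM in WT, and was not called (0.29, adjusted p = 0.444). Of 20 genes of CDK control (CDK inhibitors, G1 cyclins, Cdk2, Cdk4, Cdk6, the Cdc25 phosphatases, Wee1 and Pkmyt1) 3 rose, Ccne2 (2.47), Cdc25c (2.64) and Ccne1 (1.57). Of 20 p53 targets 0 were called by edgeR (median -0.21), with 0 higher and 4 lower at an unadjusted p under 0.05, where 13.5% of all genes were higher and 12.5% lower. Cdkn1a, the p21 inhibitor of CDKs, had 321 and 315 CPM in K74R, against 313 and 359 CPM in WT (-0.08, SE 0.19, adjusted p = 0.814), and the K74R values lay between the WT values.

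**Figure D3:**
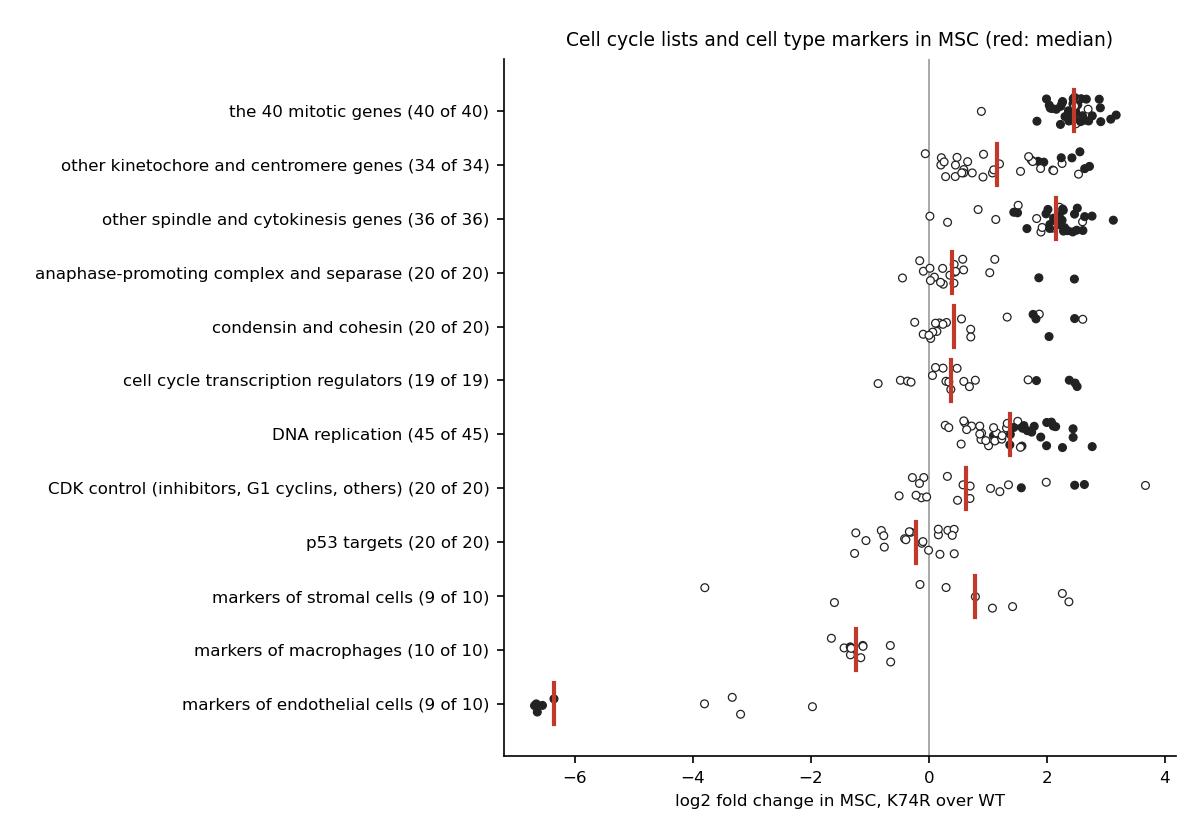
Log2 fold change in MSC, K74R over WT, of each gene tested in the 40 mitotic genes, 8 further cell cycle lists and 3 lists of cell type markers, with filled points at an adjusted p under 0.05 and a red bar at the median (2.47 for the mitotic genes). Numbers in parentheses give the genes tested of the genes listed.

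Markers of other cells moved in the same libraries. The 10 endothelial markers summed to 21.5 and 33.8 CPM in K74R MSC, against 318 and 1726 CPM in WT MSC, with Cldn5 at 0 counts in K74R, and 5 of 9 tested fell (median -6.35). Pecam1, an adhesion molecule of endothelium, had 3.65 and 2.99 CPM in K74R, against 104 and 565 CPM in WT (log2 fold change -6.65, adjusted p = 0.0323), and the angiopoietin receptor gene Tek followed it (-6.68, adjusted p = 0.0327). The 10 macrophage markers, none of them at 0 counts, were lower in both K74R libraries as a sum. With edgeR all 10 had negative log2 fold changes (median -1.23), 7 of them at an unadjusted p under 0.05. After adjustment 1 of 10 fell, the complement gene C1qa (-1.33, adjusted p = 0.0482). Of 9 stromal markers tested 0 were called (5 higher and 2 lower at an unadjusted p under 0.05, against the 13.5% and 12.5% of all genes), and their summed levels overlapped between the genotypes. The epithelial markers summed to 94.9 and 23.1 CPM in K74R, against 2.52 and 10.4 CPM in WT. Only 3 of the 10 were tested, and they did not move together (log2 fold changes from -3.52 to 5.45). At an unadjusted p under 0.05 edgeR had 2 higher and 1 lower, and 1 was called, the keratin gene Krt7, which rose (3.62, adjusted p = 0.0270). The 10 markers each of neutrophil progenitors and of T and NK cells were near 0 in MSC, at 2.86 to 3.35 and 7.53 to 18.6 CPM in K74R, against 0.799 to 1.08 and 1.72 to 3.39 CPM in WT. Cd4 made up most of the T and NK sum in K74R, at 18.2 and 6.75 CPM, against 0.861 and 1.83 CPM in WT, and 7 of the 10 markers in K74R and 6 in WT, Cd3e, Cd3d and Cd3g among them, were at 0 counts. Markers of erythroblasts summed to 399.8 and 319 CPM in K74R, against 418 and 147 CPM in WT, and those of B cell progenitors to 187.0 and 187.0 CPM in K74R, against 186.5 and 196.7 CPM in WT. The part of these cell types in the difference of the mitotic genes was not tested.

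In bone marrow the mitotic genes were abundant in both genotypes, and 1 of 40 was called, where 0.773% of the 14872 genes tested were. The log2 fold changes ran from -0.48 to 0.54 with a median of -0.03 (median of all genes -0.00) and SE between 0.07 and 0.15. The geometric mean of the 40 genes was 175.3, 167.5 and 158.4 CPM in K74R, against 179.6, 159.4 and 179.9 CPM in WT. Groups did not overlap for 2 genes, 1 higher and 1 lower in K74R, where 11.1% and 11.9% of all genes were so ordered. Spc24 (ENSMUSG00000074476, chr9:21755442-21760303, minus strand, GRCm38) had 31.9, 29.2 and 30.6 CPM in K74R marrow, against 40.7, 45.5 and 43.00 CPM in WT marrow. It fell, with a log2 fold change of -0.48 (SE 0.08, adjusted p = 0.0438 with edgeR), while its 3 partners in the NDC80 complex were not called. The call was kept in 4 of 14 alternatives, with adjusted p from 0.00301 to 0.212 over them, and was lost when any library but WT library 2 was left out. Hjurp, taken here after its values were seen, had 383, 331 and 353 CPM in K74R, against 253, 278 and 211 CPM in WT, without overlap (0.54, SE 0.11, adjusted p = 0.0678). It passed in 4 of 14 alternatives, with adjusted p from 1.3e-04 to 0.258.

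**Figure D4:**
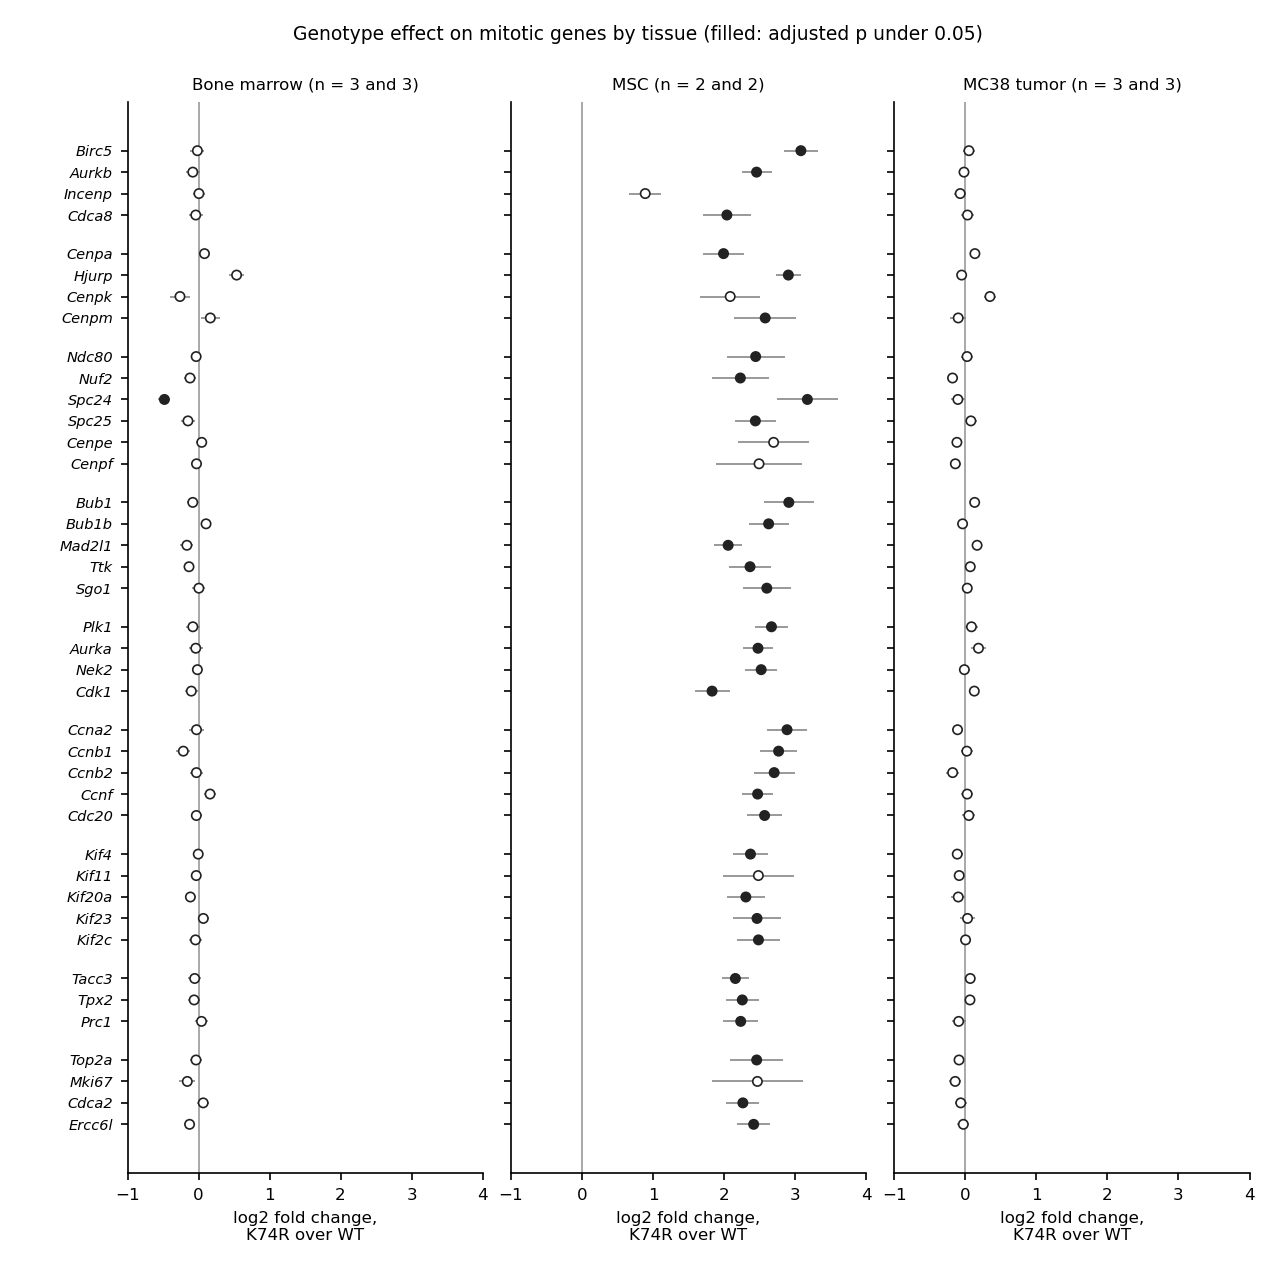
Log2 fold change of the 40 genes, K74R over WT, in bone marrow, MSC and tumors, with bars of 1 SE (some narrower than the point) and filled points at an adjusted p under 0.05. Points lie right of 0 for all genes in MSC, from 0.89 to 3.17, and between -0.48 and 0.54 in the other tissues.

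The well known markers of proliferation overlapped between the genotypes in marrow. Mki67 had 5659, 5281 and 4855 CPM in K74R, against 6408, 5182 and 6209.9 CPM in WT, and Top2a had 1566, 1552 and 1474 CPM in K74R, against 1605, 1519 and 1628 CPM in WT. For Cdk1 the values were 210.3, 207 and 179 CPM in K74R and 209.9, 197 and 239 CPM in WT. Ccnb1, with 272, 259.8 and 219 CPM in K74R, against 296, 264 and 319 CPM in WT, had the lowest log2 fold change of these markers (-0.21, adjusted p = 0.295), and its highest K74R library lay above its lowest WT library. Plk1 stood at 133, 109 and 107 CPM in K74R and at 134, 110.2 and 128 CPM in WT, and Aurkb at 138, 118 and 123 CPM in K74R and at 154, 121 and 130.0 CPM in WT. In both kinase genes library 1 of each genotype was the highest of its group. Cenpa had 199.5, 190.3 and 199 CPM in K74R and 198, 174 and 189 CPM in WT, and Ndc80 had 89.97, 94.4 and 87.2 CPM in K74R and 97.1, 87.97 and 95.6 CPM in WT. Bub1 had 142, 145 and 133 CPM in K74R and 151, 135 and 163 CPM in WT, and Kif11 had 543, 572 and 549.9 CPM in K74R and 583, 548 and 588 CPM in WT. The ranges of the genotypes overlapped for each of these 10 genes.

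None of the 8 further cell cycle lists had a called gene in marrow by edgeR. At an unadjusted p under 0.05 the DNA replication list (45 genes) had 1 gene higher and 6 lower (median -0.14). The other kinetochore list (34 genes) had 0 higher and 4 lower (median -0.09). Of 19 p53 targets tested 3 were higher and 0 lower, and of the 36 other spindle and cytokinesis genes 2 and 0. The condensin and cohesin list and the CDK control list had 1 higher and 0 lower each. The anaphase-promoting complex list had 0 higher and 2 lower, and the transcription regulators 0 and 1. Over all genes tested 9.8% were higher and 7.99% lower. Foxm1 stood at 131 ± 8.47 CPM in K74R and at 122 ± 13.3 CPM in WT (SD, n = 3 each). Mybl2 was at 102 ± 9.80 CPM in K74R and 111 ± 16.5 CPM in WT, E2f1 at 44.7 ± 2.74 CPM in K74R and 45.7 ± 4.22 CPM in WT, and Cdkn1a at 8.02 ± 0.754 CPM in K74R and 7.40 ± 0.901 CPM in WT. Markers of B cell progenitors summed to 906, 1224 and 1336 CPM in K74R, against 541, 849 and 422 CPM in WT, and 9 of 10 were higher at an unadjusted p under 0.05, with 0 called. Markers of neutrophil progenitors summed to 16595, 15239.5 and 15444 CPM in K74R, against 19305, 16886 and 17553 CPM in WT, with 6 of 10 lower at an unadjusted p under 0.05 and 0 called. Both sums were without overlap, as were those of T and NK cells (100, 90.9 and 87.8 CPM in K74R, against 84.9, 73.7 and 79.7 CPM in WT). Macrophage markers were likewise without overlap, at 1624, 1744 and 1602 CPM in K74R, against 1506, 1591 and 1502 CPM in WT. Among the T and NK markers 2 were higher and 2 lower at an unadjusted p under 0.05, and among the macrophage markers 2 and 1, with 0 called. None of the markers in these lists was at 0 counts, and their part in the values of the mitotic genes was not tested.

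In tumors 0 of the 40 genes were called by edgeR, DESeq2 or limma-voom, where 0.0406% of the 14779 genes tested were called by edgeR. At an unadjusted p under 0.05 each of the 3 tools had 2 genes higher and 0 lower, where edgeR had 5.05% of all genes higher and 6.19% lower. The log2 fold changes ran from -0.18 to 0.35 with a median of -0.01, and the SE from 0.06 to 0.11. Groups did not overlap for 4 genes that were higher and 4 that were lower in K74R, where 7.3% and 9.64% of all genes were so ordered. The 3 genes of smallest p were Cenpk, Mad2l1 and Nuf2. Cenpk had 40.1, 41.8 and 42.4 CPM in K74R tumors, against 30.6, 32.9 and 35.2 CPM in WT tumors (log2 fold change 0.35, SE 0.08, adjusted p = 0.277). Mad2l1 had 217, 212 and 202 CPM in K74R, against 186, 187 and 195 CPM in WT (0.16, SE 0.06, adjusted p = 0.398). Nuf2 had 66.96, 68.6 and 59.9 CPM in K74R, against 70.96, 74.1 and 78.5 CPM in WT (-0.18, SE 0.08, adjusted p = 0.445). All K74R libraries were above all WT libraries for the first 2 of these genes and below them for Nuf2.

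Mki67 had 793, 699.7 and 661 CPM in K74R tumors, against 837, 752 and 810.5 CPM in WT tumors, with overlap. Top2a had 1242, 1164 and 1088 CPM in K74R, against 1247, 1246 and 1259 CPM in WT, where the highest K74R library fell just short of the lowest WT library (-0.09, adjusted p = 0.617). Cdk1 had 201, 198 and 198 CPM in K74R, against 176, 181 and 194 CPM in WT (0.12, adjusted p = 0.499), again without overlap but with K74R higher. Cenpa, with 57.7, 56.6 and 54.99 CPM in K74R, against 50.5, 51.5 and 53.6 CPM in WT, was ordered like Cdk1 (0.13, adjusted p = 0.497). Ccnb1 stood at 240.4, 222 and 206 CPM in K74R and at 209, 215 and 241 CPM in WT, and Plk1 at 81.9, 87.3 and 76.1 CPM in K74R and at 80.8, 68.5 and 83.9 CPM in WT. For Aurkb the values were 75.6, 72.2 and 72.2 CPM in K74R and 75.6, 70.03 and 79.5 CPM in WT, and for Ndc80 89.6, 80.1 and 76.1 CPM in K74R and 77.2, 81.03 and 85.9 CPM in WT. Those 4 genes overlapped between the genotypes, as did the next pair. Bub1 had 143, 153 and 156 CPM in K74R and 131, 139 and 146 CPM in WT, and Kif11 had 194, 180.0 and 169 CPM in K74R and 195, 195 and 192 CPM in WT.

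The further cell cycle lists had 0 called genes in tumors by edgeR, with medians between -0.05 and 0.06. Foxm1 stood at 82.3 ± 6.91 CPM in K74R and at 87.5 ± 1.34 CPM in WT (SD, n = 3 each). Mybl2 was at 146 ± 6.24 CPM in K74R and 139 ± 17.4 CPM in WT, E2f1 at 38.6 ± 3.30 CPM in K74R and 42.8 ± 2.16 CPM in WT, and Cdkn1a at 52.9 ± 7.71 CPM in K74R and 48.7 ± 1.93 CPM in WT. Macrophage markers, none at 0 counts, summed to 830.1, 694 and 571 CPM in K74R tumors, against 996, 1013 and 977 CPM in WT tumors, and 0 of 10 were called, 8 being lower at an unadjusted p under 0.05. The part of this difference in the values of the mitotic genes was not tested.

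The genotype effect itself differed between tissues. In a model of all 16 libraries the effect in MSC exceeded that in bone marrow for 40 of 40 genes at an adjusted p under 0.05, where 10.8% of the 18191 genes tested did. The differences in log2 fold change ran from 0.91 for Incenp to 3.68 for Spc24, with a median of 2.53 and a highest adjusted p of 0.00400. The effect in MSC also exceeded that in tumors for 40 of 40 genes, where 6.48% of all genes did, by 0.98 for Incenp to 3.31 for Spc24 with a median of 2.50 and a highest adjusted p of 0.00383. These 2 tests share the MSC libraries. For Mki67, which had no call in MSC alone, the differences were 2.66 (SE 0.51, adjusted p = 0.00243) against marrow and 2.64 (SE 0.51, adjusted p = 0.00383) against tumor. In that model the spread is estimated over all 6 groups, although the MSC pairs differed more than other replicates (chi-square per degree of freedom of 58.7 in K74R and 51.4 in WT, against 6.86 to 19.6 in marrow and tumor), and within MSC alone it called 40 of the 40 genes. Between tumor and marrow 0 of 40 differed by edgeR, where 0.0385% of all genes did, with 2 higher and 1 lower at an unadjusted p under 0.05 (5.34% and 6.13% of all genes), and DESeq2 called 1. Cenpk (0.61, SE 0.21, adjusted p = 0.328) and Hjurp (-0.59, SE 0.14, adjusted p = 0.196) had the largest differences there.

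**Figure D5:**
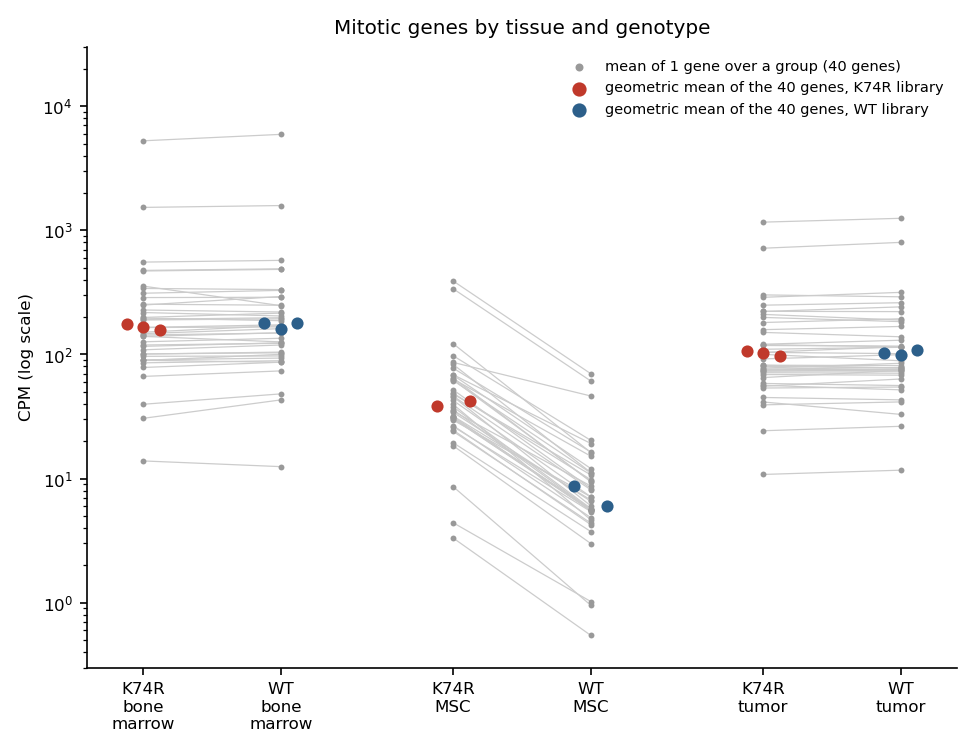
CPM (log scale) of the 40 genes in each genotype and tissue, with grey points for group means, lines joining the same gene, and large points for the geometric mean of the 40 genes in each library. The MSC libraries lie lowest, at 38.5 and 42.04 CPM in K74R and at 8.73 and 5.99 CPM in WT, against 97.7 to 179.9 CPM in the other tissues.

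Levels also differed between tissues. Among the WT libraries MSC was lower than bone marrow for 40 of 40 genes, where 36.3% of the 17193 genes tested were lower, with a median log2 fold change of -4.49. It was also lower than tumor for 40 of 40 (median -3.77), where 34.5% of all genes were. Mki67 had 69.9 ± 48.5 CPM in WT MSC (SD, n = 2), against 5933 ± 658 CPM in WT marrow (SD, n = 3), a log2 fold change of -6.40 (SE 0.46, adjusted p = 1.3e-06), the largest of that contrast. Incenp differed least in both contrasts, by -2.64 against marrow and -1.85 against tumor. Tumor was lower than marrow for 27 genes and higher for 0, where 36.4% of all genes were lower, with Mki67 (-2.90), Cenpf (-2.08) and Cenpa (-1.86) at the front. With library size as the only scaling the median of all genes in that contrast moved by 0.17 on the log2 scale, and 23 genes were then lower and 1 higher. The same contrasts in the 8 K74R libraries had MSC lower than marrow and lower than tumor for 40 genes each. Between K74R tumor and K74R marrow 26 genes were lower and 1 was higher, Mad2l1 (0.47, SE 0.09, adjusted p = 0.00124), and 23 of the 26 were also lower in WT. The 13 without a call between WT tumor and WT marrow were Hjurp, Cenpm, Ndc80, Cenpe, Bub1, Mad2l1, Aurka, Cdk1, Kif20a, Kif2c, Tpx2, Top2a and Ercc6l.

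Group means ran in the order bone marrow, tumor, MSC for 36 of 40 genes in K74R and for 38 of 40 in WT. The exceptions, in which tumor came first, were Cenpk, Bub1, Mad2l1 and Cdk1 in K74R, against Hjurp and Mad2l1 in WT. Of these exceptions only Mad2l1 in K74R was called higher in tumor than in marrow, and the others had no call in the genotype named. The mean in marrow was 2.24 to 13.5 times that in MSC in K74R (median 3.80), against 6.25 to 84.9 times in WT (median 22.7). The mean in tumor was 1.47 to 9.40 times that in MSC in K74R (median 2.41), against 3.63 to 33.2 times in WT (median 13.8). The mean of K74R MSC was below those of K74R marrow and K74R tumor for each of the 40 genes.

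Per kilobase of exon Mki67 was first in marrow, at 523 CPM per kb in K74R and 589.8 CPM per kb in WT, followed by Top2a at 169.8 in K74R and 175.8 in WT and by Ccnb2 at 125.3 in K74R and 129.2 in WT. In MSC Mki67 led in K74R at 38.8 CPM per kb, with Top2a at 37.5 and Ccnb2 at 24.7, while in WT Incenp (10.7) stood above Mki67 (6.94) and Top2a (6.77). In tumors Top2a was first, at 129.2 CPM per kb in K74R and 138.7 in WT, with Mki67 at 71.3 in K74R and 79.5 in WT and Tpx2 at 64.6 in K74R and 62.3 in WT. The lowest 2 genes were Cenpk and Cenpm in every group but K74R tumors, where they were Cenpm and Cenpf. The bodies of 18 of the 40 genes overlap another gene in the annotation, with exons and introns not told apart. On the opposite strand 14 do, among them Prc1 with Rccd1 and Kif20a with Cdc23. On the same strand 6 do, among them Incenp with AC132253.8 (1208 bases). How reads in shared stretches were counted is not known, because no source used here gives the strand setting or the handling of shared reads.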

How the data were processed

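Poly(A)-selected libraries (KAPA mRNA HyperPrep, per the labels' protocols) of 16 samples were sequenced. The deposited table holds raw read counts per gene. Per the submitters' processing notes the authors used FastQC, MultiQC, Trimmomatic 0.38, HISAT2 2.1.0 and featureCounts 1.6.0 on GRCm38. No source used here gives the annotation release, the strand setting or the handling of shared reads.

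Groups follow the genotype and tissue labels. Identifiers were matched to GENCODE M21, 55536 of 55536. CPM were computed over all 16 libraries with TMM factors. Tests used edgeR 4.0.16 in R 4.3.3 (filterByExpr by group, TMM, glmQLFit, glmQLFTest, Benjamini-Hochberg over all genes tested, threshold 0.05): each tissue alone for genotype, the 8 WT libraries for tissues, and all 16 libraries in 6 groups for differences of the genotype effect. The SE is the log2 fold change over the square root of F, with a prior count of 0.125. Floors cover counting error only, while the SE comes from the quasi-likelihood fit and includes the spread between replicates. Replicates of every group differed by more than sampling noise. The test was tried on simulated counts. Alternatives used DESeq2 1.42.0, limma-voom (limma 3.58.1), other scalings, no filter on low counts, a replicate block, all libraries together and each library left out.

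The 40 genes, the lists and the tests were chosen with earlier results of these data known. Values in every library are given for up to 6 called genes of largest change in each direction, for the 3 of smallest p where none was called, and for 10 fixed markers. Up to 2 called genes per direction are named from each further list, with Foxm1, Mybl2, E2f1 and Cdkn1a, and other called members are named beside a small count.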

Additional observations from a re-analysis of the deposited data

Results flagged for a closer look

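The genotype effect differed between tissues for all of the mitotic genes. The K74R effect in MSC exceeded that in bone marrow for 40 of 40 genes, where 10.8% of the 18191 genes tested did. It exceeded that in tumors for 40 of 40 genes, where 6.48% did. Both are interaction contrasts at an adjusted p under 0.05 with edgeR (quasi-likelihood, Benjamini-Hochberg adjusted over all genes tested). The spread was estimated over all 6 groups, although MSC replicates differed more than others, and the test within MSC alone called 34 of the 40. Each alternative run for these contrasts, with leaving out any single library among them, also called 40 genes in both. Both contrasts use the same 4 MSC libraries, in which markers of endothelial cells and macrophages were lower in K74R as sums, and the part of those cells was not tested.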

How the results depend on the processing

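The difference of the genotype effect between MSC and each other tissue was called for 40 of 40 genes with other scalings, no filter, DESeq2 or a replicate block. It was also called for 40 when a marrow or tumor library was left out. Each of these fits estimated the spread over all 6 groups, so none tested the difference with the spread of MSC alone. The calls within MSC alone varied: 33 genes with RLE factors or limma-voom, 29 with library size alone, 40 without a filter or with DESeq2, and 0 to 37 when 1 library was left out, always with positive log2 fold changes (0.67 to 3.77). The median over the 40 genes stayed between 2.16 and 2.74 in MSC, -0.11 and -0.00 in bone marrow and -0.06 and 0.02 in tumors. All genes called in MSC numbered 484, against 3063 without a filter, 1909 with DESeq2, 4431 with all 16 libraries together and 0 to 581 with 1 library left out. In bone marrow the 1 called gene became 0 with library size alone, limma-voom or exon length offsets, 2 without a filter or with DESeq2, and 0 to 2 with 1 library left out. All genes called there numbered 115, against 875 without a filter, 533 with DESeq2, 60 with all 16 libraries and 11 to 684 with 1 library left out. In tumors the count stayed at 0 of the 40, and all genes called numbered 6, against 810 without a filter, 202 with DESeq2, 0 with all 16 libraries and 0 to 124 with 1 library left out. The contrast of the genotype effect between tumor and marrow called 0 genes, against 1 without a filter or with DESeq2. Between WT tumor and WT marrow 24 to 32 genes were called with 1 library left out. Among the 40 genes and the 23 list genes followed through the alternatives in MSC, only Cdkn1a changed its sign, to 0.0066 without WT library 2 (-0.17 without WT library 1). The cause of these changes was not tested.

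Whether replicate numbers pair the samples is not said in the labels. Deviations of same-numbered libraries correlated at 0.31, 0.15 and -0.13 in bone marrow, 0.03, -0.03 and 0.09 in tumors and -0.20 in MSC. So few libraries cannot settle the pairing, and with 2 per genotype in MSC the crossed value must be 0.20. With the replicate number as a block 39 of the 40 genes and 1135 genes in all were called in MSC, 0 and 135 in bone marrow, and 0 and 13 in tumors. Crossed pairing in MSC, added after the data were seen, called 40 and 1943, and 40 and 1424 with exon length offsets, which were added likewise. Depth limits Cenpm, Spc24 and Cenpk in WT MSC, which rest on 7 to 20 counts a library.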
